A study of Homo sapiens with 12 samples.

Results

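The p53 target genes described here are 31 genes that are widely listed as switched on by the transcription factor p53. They were taken by gene name from a table of 57773 genes, and all 31 reached a value of at least 1 in all 12 libraries. They are among 18648 genes that reached that value in at least 3 of 12 libraries. The libraries come from A498, a human kidney carcinoma cell line, and the labels put all of them in a single batch. The 4 groups were cells given an siRNA against ELOVL2 (siELOVL2), cells given an siRNA against ELOVL5 (siELOVL5), cells given both siRNAs (double knockdown) and cells given a control siRNA. Each group had 3 biological replicates, and all cells had been transfected. Both targeted genes encode elongases of polyunsaturated fatty acids, and siRNAs are short duplexes that lower the level of a matching transcript. The siRNA sequences, their doses and the time of harvest are not stated in these sources.

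p53 is held at a low level in unstressed cells, mainly because MDM2, a product of one of its own targets, marks it for destruction. DNA damage and other stresses release it, and it then binds a DNA element built from a repeated decamer and raises genes for cell cycle arrest, DNA repair, cell death, metabolism and its own feedback. Several of these genes are also raised by other regulators, among them the stress factors ATF4 and CHOP.

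The decamer is where p53 makes contact with DNA, so the promoters of the members were searched for it. RefSeq windows from 250 bases before to 50 bases after the gene start (GRCh38.p14) were at hand for 25 of the 31 genes, and an exact match to the p53 consensus decamer, whose pattern covers both strands, was found in 8 of them (32.0%). Of all 27305 gene symbols with such a window, 8.06% held a match. The 8 matches are shown as 30-base windows, 5′ to 3′ on the strand of the gene, with the decamer in capitals. They show which genes carry a decamer, and that AEN and FDXR carry the same one.
PLK2, chr5:58460199-58460228, minus strand: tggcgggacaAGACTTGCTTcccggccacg
SESN1, chr6:109009018-109009047, minus strand: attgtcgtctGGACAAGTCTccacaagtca
FAS, chr10:88991299-88991328, plus strand: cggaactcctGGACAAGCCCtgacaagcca
DDB2, chr11:47214975-47215004, plus strand: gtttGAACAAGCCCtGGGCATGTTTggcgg
ABHD4, chr14:22598284-22598313, plus strand: ggacctggcaAGGCTTGTTTactatggccg
RPS27L, chr15:63157517-63157546, minus strand: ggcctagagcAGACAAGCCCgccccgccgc
AEN, chr15:88621296-88621325, plus strand: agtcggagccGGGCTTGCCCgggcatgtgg
FDXR, chr17:74872986-74873015, minus strand: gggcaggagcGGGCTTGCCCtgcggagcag
DDB2 was the only member with 2 decamers 0 to 13 bases apart, the arrangement of a full element. They lie 6 and 17 bases after the RefSeq start with 1 base between them. That arrangement was found in the windows of 10 gene symbols in all (0.0366%). The ABHD4 decamer starts 6 bases before the start of the gene. A match is a description of these letters and is not a measured binding site.

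Values are the deposited normalized counts, in which every library has been given the same set of values, with a total of 8.525 M per library. Estimated depths were 6.70 to 10.7 M reads. A gene with 0 reads could hold a normalized count of up to 0.917, far below all member values. The targeted genes matched the labels. ELOVL2 had 27.0, 30.1 and 18.4 in siELOVL2, 286, 235 and 165 in siELOVL5, 25.4, 26.5 and 19.9 in the double knockdown and 299, 299 and 211 in control. ELOVL5 had 1791, 1994 and 2328 in siELOVL2, 147, 141 and 156 in siELOVL5, 177, 172 and 187 in the double knockdown and 1939, 1954 and 2038 in control. Of the markers listed for A498, PAX8 (511 to 677), KRT8 (5179 to 8969) and VIM (13122 to 24170) were present in all libraries. CA9, a hypoxia marker of many kidney carcinomas, stood at 2.08 to 29.1. The leukocyte markers CD3E (0) and PTPRC (at most 2.83) and the fibroblast markers LUM (0) and DCN (at most 1.67) were at or near 0, and 2 endothelial markers summed to at most 7.17. The 10 markers listed for A498 summed to 27364 to 28381 in siELOVL2 and 25922 to 31952 in siELOVL5. They summed to 25186 to 29575 in the double knockdown and 33539 to 33983 in control. VIM alone made up a large part of these sums. The 5 leukocyte markers, mainly CD68, summed to 301 to 329 in siELOVL2, 295 to 325 in siELOVL5, 295 to 455 in the double knockdown and 316 to 364 in control. The 4 fibroblast markers, LUM, DCN, PDGFRB and COL1A1, summed to 268 to 355, 399 to 444, 275 to 325 and 362 to 460.0 in the same groups. Nearly all of these sums came from PDGFRB and COL1A1 together. The part of the fibroblast markers in the member values was not tested. RNA was measured from whole cultures, so a smaller share of cells expressing a gene and less of its RNA per cell cannot be told apart. siELOVL5 replicate 3 stood apart from the rest, with an estimated weight of 0.228 against 0.491 to 2.62 for the other libraries, and results are therefore given with and without it.

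Among the members the level per kilobase of transcript was highest for PLK2, NINJ1 and CDKN1A, at 2208, 1224 and 1125 normalized counts per kilobase in control cells. It was lowest for TP53INP1, at 6.32. These levels use the longest protein-coding transcript of each gene in GENCODE 29, and they are a description only.

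NINJ1 and ABHD4 were higher than in control in cells given siELOVL2, alone or together with siELOVL5. No member passed the test in cells given siELOVL5 alone. Loss of ELOVL2 and any other effect of the siRNA against it cannot be told apart in this design. With limma and Benjamini-Hochberg adjustment over all 18648 genes, 2 of 31 members were higher and 0 were lower in siELOVL2 than in control, where 1.36% of all genes were called in either direction, 0.547% were called higher and 0.815% lower. In the double knockdown 2 of 31 were higher and 0 lower than in control, against 4.42% of all genes called, 2.15% higher and 2.27% lower. In siELOVL5 0 of 31 were called, against 0.139% of all genes (0.0161% higher). At an unadjusted limma p under 0.05, 11 members were higher and 0 lower in siELOVL2. The counts were 5 and 2 in siELOVL5 and 8 and 2 in the double knockdown. Such a p in either direction was found for 13.7%, 9.56% and 18.8% of all genes in siELOVL2, siELOVL5 and the double knockdown. The 3 comparisons share the control libraries.

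The members as a group sat slightly above control in the groups that received siELOVL2. They were chosen with earlier results of these data known, so the values below are a description and not a test. The median log2 fold change of the 31 was 0.17 in siELOVL2, where the median of all tested genes was 0.02. It was 0.18 in the double knockdown, where the median of all genes was also 0.02. In siELOVL5 the medians were 0.06 for the members and -0.0039 for all genes. The fitted change was above 0 for 26 of 31 members in siELOVL2, for 20 in siELOVL5 and for 25 in the double knockdown, and among all genes it was above 0 for 52.9%, 48.7% and 52.4% in the same order. Every siELOVL2 library lay above every control library for 13 members, against 12.0% of all genes, and below for 1, against 10.4%. Every double knockdown library lay above every control library for 12 members, against 13.4% of all genes, and below for 2, against 11.4%. In siELOVL5 the same held for 4 members above, against 6.07% of all genes, and for 1 below, against 7.04%.

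**Figure D1:**
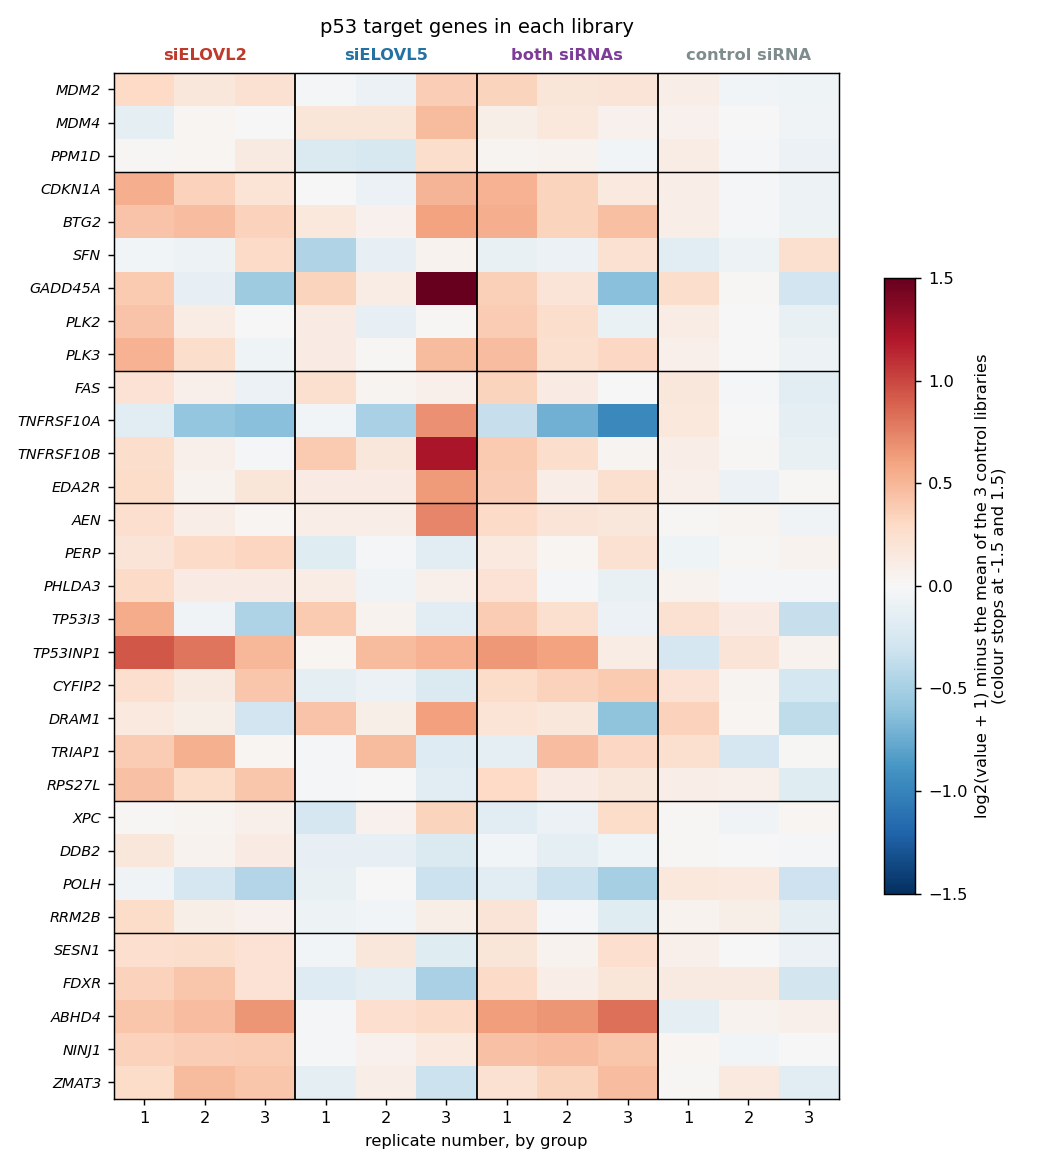
Each row is a p53 target gene, each column a library, and colour is log2(value + 1) minus the mean of the 3 control libraries, with horizontal lines between roles. NINJ1 and ABHD4 are red in all siELOVL2 and double knockdown libraries, and siELOVL5 replicate 3 is the darkest for GADD45A and TNFRSF10B.

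**Figure D2:**
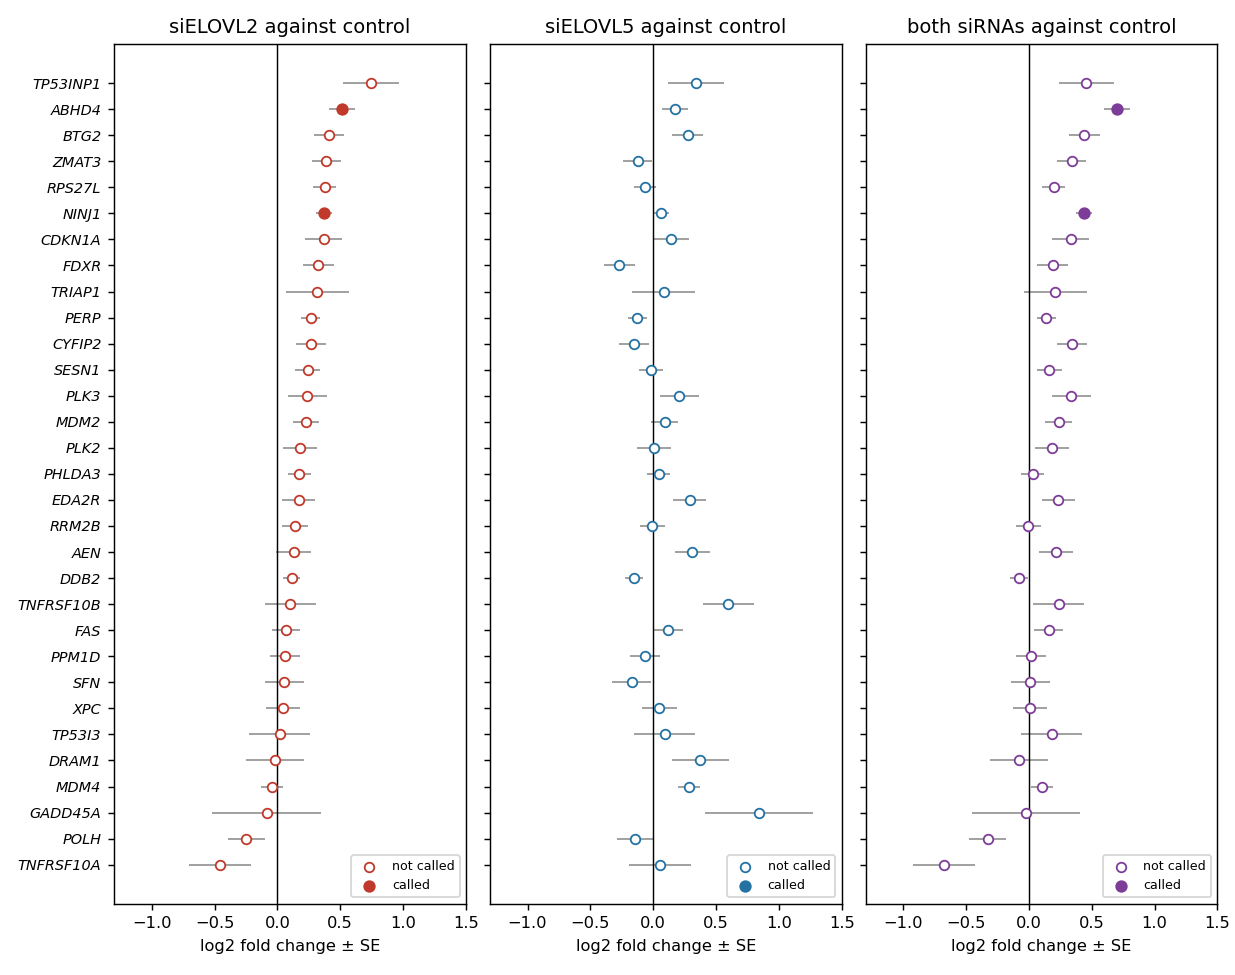
Log2 fold change of each member against control with its SE, for siELOVL2, siELOVL5 and the double knockdown, with filled points for members called at an adjusted p under 0.05. The 2 filled points in the siELOVL2 and double knockdown panels are ABHD4 and NINJ1, and the siELOVL5 panel has none.

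The feedback genes are MDM2, the ubiquitin ligase that targets p53, MDM4, which blocks its activation domain, and PPM1D, a phosphatase that dampens DNA damage signalling. None of the 3 was called in any knockdown against control. MDM2 had 3645, 3329 and 3466 in siELOVL2, 2942, 2795 and 3840.4 in siELOVL5, 3754, 3361 and 3406 in the double knockdown and 3184, 2891 and 2844 in control. All siELOVL2 and double knockdown libraries lay above the highest control library, and in siELOVL5 only replicate 3 did. Its log2 fold change was 0.23 ± 0.11 (SE) in siELOVL2 (adjusted p = 0.370) and 0.24 ± 0.11 (SE) in the double knockdown (adjusted p = 0.250). With siELOVL5 replicate 3 left out of the fit the adjusted p in the double knockdown was 0.0410. MDM4 averaged 922 ± 109 in siELOVL5 and 755 ± 30.9 in control (SD, n = 3 each), with every siELOVL5 library above every control and an adjusted p of 0.331 (0.555 without siELOVL5 replicate 3). PPM1D ranged from 305 to 429 over the 12 libraries. CDKN2A, whose product ARF blocks MDM2, was at 0 in all libraries.

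The arrest genes are CDKN1A, which encodes the cyclin-dependent kinase inhibitor p21, BTG2, an antiproliferative partner of the mRNA deadenylation machinery, SFN, the cell cycle inhibitor stratifin, GADD45A, a growth arrest and stress protein, and the polo-like kinases PLK2 and PLK3. None of the 6 was called in any knockdown against control. CDKN1A had 3719, 3242 and 2942 in siELOVL2, 2540.5, 2405 and 3628 in siELOVL5, 3642, 3209.6 and 2817 in the double knockdown and 2727, 2497 and 2425 in control. The siELOVL2 and double knockdown libraries were all above the controls. The log2 fold change was 0.37 ± 0.15 (SE) in siELOVL2 (adjusted p = 0.272) and 0.33 ± 0.15 (SE) in the double knockdown (adjusted p = 0.240). In siELOVL5 replicates 1 and 2 lay within or below the control range and replicate 3 far above it.

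BTG2 had 908, 933 and 860.1 in siELOVL2, 754, 704 and 1029.6 in siELOVL5, 984, 854 and 922 in the double knockdown and 728, 665 and 639.7 in control. The siELOVL2 and double knockdown ranges did not overlap with control. Its log2 fold change was 0.41 ± 0.12 (SE) in siELOVL2 (adjusted p = 0.129) and 0.44 ± 0.12 (SE) in the double knockdown (adjusted p = 0.0593). Without siELOVL5 replicate 3 the adjusted p was 0.00884 in siELOVL2 and 0.00309 in the double knockdown, so that BTG2 passed the test there. GADD45A had 347, 243 and 182 in siELOVL2, 334, 285 and 1115 in siELOVL5, 339, 301 and 170.4 in the double knockdown and 318, 267 and 216 in control. It had the largest fitted change of any member in siELOVL5, at 0.84 ± 0.43 (SE) (adjusted p = 0.563), and that value rests on replicate 3, since replicates 1 and 2 lay at 334 and 285. Without that library the change was 0.22 ± 0.30 (SE), with an adjusted p of 0.937. PLK2 ranged from 5983 to 8786, PLK3 from 144 to 219.8 and SFN from 375 to 626 over the 12 libraries, and their adjusted p-values against control were 0.267 or higher in all knockdowns.

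The death receptors are FAS, the receptor of FAS ligand, TNFRSF10A and TNFRSF10B, which bind TRAIL, and EDA2R, the receptor of ectodysplasin A2. None of the 4 was called in any knockdown against control. TNFRSF10A had 369, 276 and 267 in siELOVL2, 403, 294 and 665 in siELOVL5, 326, 251 and 212 in the double knockdown and 462, 412 and 373 in control. Every siELOVL2 and every double knockdown library lay below every control library. It had the lowest fitted change of all members, at -0.46 ± 0.25 (SE) in siELOVL2 (adjusted p = 0.451) and -0.68 ± 0.25 (SE) in the double knockdown (adjusted p = 0.150). Without siELOVL5 replicate 3 the double knockdown value had an adjusted p of 0.0310.

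TNFRSF10B had 2772, 2448 and 2271 in siELOVL2, 3053, 2605 and 5419.7 in siELOVL5, 3043, 2788 and 2392 in the double knockdown and 2479, 2343 and 2141 in control. Every siELOVL5 library lay above every control library, and replicate 3 was well above all 11 other libraries. The log2 fold change in siELOVL5 was 0.60 ± 0.20 (SE) (adjusted p = 0.377). Without replicate 3 it was 0.28 ± 0.11 (SE) (adjusted p = 0.629), the highest of any member there. EDA2R averaged 502 ± 110.0 in siELOVL5 and 476 ± 44.7 in the double knockdown, against 404 ± 23.3 in control (SD, n = 3 each), with no overlap with control in either, and adjusted p-values of 0.516 and 0.378. Its log2 fold change in siELOVL5 was 0.29, and 0.12 without replicate 3. FAS ranged from 612 to 866 over the 12 libraries, with overlap between every knockdown and control.

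The group of genes that act on death and survival inside the cell holds AEN, an exonuclease that promotes apoptosis, PERP, a membrane protein of cell junctions and apoptosis, PHLDA3, which restrains AKT, and TP53I3, a quinone oxidoreductase. It also holds TP53INP1, a stress protein of apoptosis and autophagy, CYFIP2, a subunit of the actin-regulating WAVE complex, DRAM1, a lysosomal protein of autophagy, TRIAP1, a small mitochondrial survival protein, and RPS27L, a ribosomal protein S27-like protein. None of the 9 was called against control. In siELOVL2 8 of 9 had a fitted change above 0, with a median log2 fold change of 0.26, and in the double knockdown 8 of 9, with a median of 0.20. TP53INP1 had 68.2, 62.5 and 50.4 in siELOVL2, 36.0, 49.6 and 51.0 in siELOVL5, 56.1, 54.2 and 38.3 in the double knockdown and 29.6, 40.7 and 36.7 in control. Every siELOVL2 library was above every control, and the double knockdown overlapped with control. It had the largest change of any member in siELOVL2, at 0.75 ± 0.22 (SE) (adjusted p = 0.131), and 0.46 ± 0.22 (SE) in the double knockdown (adjusted p = 0.290).

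RPS27L had 1421, 1264 and 1391 in siELOVL2, 1028, 1037 and 938 in siELOVL5, 1282, 1136 and 1180.1 in the double knockdown and 1121, 1104 and 923 in control. All siELOVL2 and double knockdown libraries lay above all control libraries. The siELOVL2 change of 0.38 ± 0.09 (SE) had an adjusted p of 0.0601, which was 0.0247 without siELOVL5 replicate 3. RPS27L is close in sequence to RPS27, and reads shared between the genes could not be told apart. DRAM1 had the next largest change in siELOVL5 after GADD45A and TNFRSF10B, with 796, 629 and 907 in siELOVL5, against 755, 607 and 453 in control, and the groups overlapped (adjusted p = 0.623). Without siELOVL5 replicate 3 its change was 0.26, against 0.38 with it. DRAM1 had 655, 631 and 486 in siELOVL2 and 680.3, 666 and 389 in the double knockdown, and both overlapped with control. CYFIP2 had 304, 279 and 341 in siELOVL2, 230.2, 241 and 219.8 in siELOVL5, 309, 326 and 336 in the double knockdown and 297, 264 and 212 in control. Only the double knockdown lay wholly above control. PERP averaged 1521 ± 68.4 in siELOVL2 and 1264 ± 54.0 in control (SD, n = 3 each; adjusted p = 0.114). Over the 12 libraries AEN ranged from 819 to 1409.8, PHLDA3 from 884 to 1166, TP53I3 from 117 to 239 and TRIAP1 from 26.2 to 45.9.

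The DNA repair genes are XPC and DDB2, which recognise damage for nucleotide excision repair, POLH, a polymerase that copies across damaged bases, and RRM2B, a ribonucleotide reductase subunit that supplies nucleotides. None of the 4 was called in any comparison. The median log2 fold change was 0.08 in siELOVL2, -0.07 in siELOVL5 and -0.04 in the double knockdown. DDB2, with its 2 decamers, averaged 585 ± 22.9 in siELOVL2, 486 ± 19.3 in siELOVL5, 512 ± 18.2 in the double knockdown and 541 ± 7.1 in control (SD, n = 3 each). Every siELOVL2 library lay above and every siELOVL5 and double knockdown library below the control range, with adjusted p-values of 0.519, 0.515 and 0.609 in the same order. POLH ranged from 237 to 375, XPC from 327 to 492 and RRM2B from 1854 to 2540.5 over the 12 libraries.

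The remaining 5 members act in metabolism, at membranes and on RNA, and they hold the genes called against control. They are SESN1, a sestrin that restrains mTORC1, FDXR, the mitochondrial ferredoxin reductase, ABHD4, a hydrolase of N-acyl phospholipids, NINJ1, which carries out plasma membrane rupture late in cell death, and ZMAT3, an RNA-binding zinc finger protein. All 5 had a fitted change above 0 in siELOVL2 and in the double knockdown, with a median log2 fold change of 0.37 and 0.34, and 2 of 5 in siELOVL5, with a median of -0.02. NINJ1 had 1992, 2032 and 2048 in siELOVL2, 1543, 1635 and 1737 in siELOVL5, 2130.5, 2159.8 and 2095 in the double knockdown and 1607, 1529 and 1569 in control. The siELOVL2 and double knockdown libraries were tightly grouped above all the others, and the siELOVL5 libraries overlapped with control. NINJ1 rose by 0.37 ± 0.06 (SE) on the log2 scale in siELOVL2 (adjusted p = 0.0130) and by 0.44 ± 0.06 (SE) in the double knockdown (adjusted p = 0.00222).

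ABHD4 had 1318, 1367 and 1562 in siELOVL2, 974, 1179.5 and 1207 in siELOVL5, 1525, 1564 and 1756 in the double knockdown and 903, 1028 and 1044 in control. Every siELOVL2 and double knockdown library lay above every library of the other groups. ABHD4 rose by 0.51 ± 0.10 (SE) on the log2 scale in siELOVL2 (adjusted p = 0.0284) and by 0.70 ± 0.10 (SE) in the double knockdown (adjusted p = 0.00233). The double knockdown calls of NINJ1 and ABHD4 held with each of the 12 libraries left out. The siELOVL2 calls depended on single libraries. That of NINJ1 was lost without control replicate 1 or 2 (adjusted p = 0.0572 and 0.0910) and without siELOVL2 replicate 2 or 3 (0.0695 and 0.0667). That of ABHD4 was lost without any of the 3 control libraries (adjusted p = 0.137, 0.100 and 0.0582) or any of the 3 siELOVL2 libraries (0.0625, 0.0922 and 0.127).

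ZMAT3 had 1352, 1547 and 1495 in siELOVL2, 1006, 1195 and 892 in siELOVL5, 1307, 1407 and 1532 in the double knockdown and 1131, 1232 and 997 in control. All siELOVL2 and double knockdown libraries were above all control and siELOVL5 libraries. The log2 fold change against control was 0.39 ± 0.11 (SE) in siELOVL2 (adjusted p = 0.121) and 0.34 ± 0.11 (SE) in the double knockdown (adjusted p = 0.112). FDXR averaged 589 ± 41.3 in siELOVL2, 391.8 ± 49.0 in siELOVL5, 536 ± 34.5 in the double knockdown and 474 ± 74.0 in control, and SESN1 averaged 451 ± 7.81, 379 ± 48.0, 428 ± 30.8 and 382 ± 21.3 in the same groups (SD, n = 3 each). Neither was called.

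**Figure D3:**
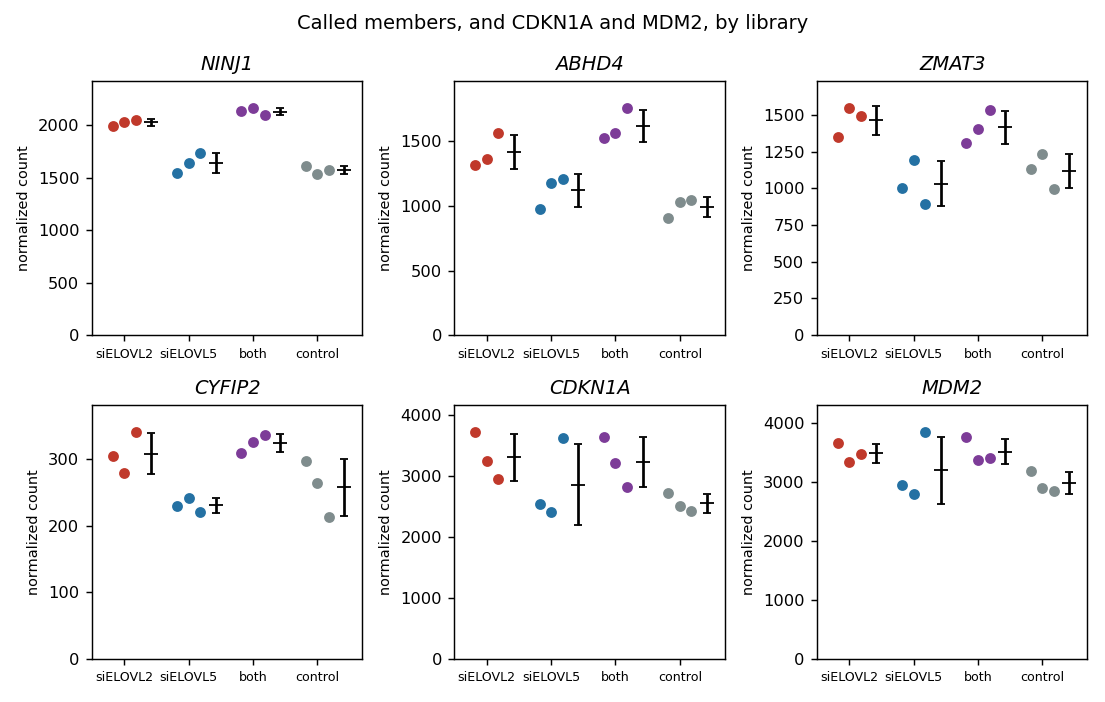
Normalized counts of NINJ1, ABHD4, ZMAT3, CYFIP2, CDKN1A and MDM2 in each library, with replicates 1 to 3 from left to right and bars for the mean and SD of 3 libraries. NINJ1 lies between 1992 and 2160 in siELOVL2 and the double knockdown and between 1529 and 1737 in siELOVL5 and control, and siELOVL5 replicate 3 stands out for CDKN1A and MDM2.

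The double knockdown differed from siELOVL5 alone in 4 members and from siELOVL2 alone in 0. Against siELOVL5, 4 of 31 members were higher and 0 lower, where 2.77% of all genes were called, 1.36% higher and 1.41% lower. These were NINJ1 at 0.38 ± 0.06 (SE) on the log2 scale (adjusted p = 0.00853), ABHD4 at 0.53 ± 0.10 (SE) (adjusted p = 0.0169), ZMAT3 at 0.46 ± 0.11 (SE) (adjusted p = 0.0467) and CYFIP2 at 0.49 ± 0.12 (SE) (adjusted p = 0.0498). The last 2 lie just under the threshold. The NINJ1 call held with each library left out. That of ABHD4 was lost without double knockdown replicate 2 or 3 (adjusted p = 0.0610 and 0.0577) or siELOVL5 replicate 1 (0.0621). The call of ZMAT3 held only without control replicate 3 or siELOVL5 replicate 2, and that of CYFIP2 only without control replicate 1 or 3, and each was lost without any other library. All 4 were lost in a fit of the double knockdown and siELOVL5 alone (0.159 for NINJ1 and 0.168 for ABHD4). Without siELOVL5 replicate 3 the count was also 4, for NINJ1, ABHD4, BTG2 and MDM2. With single libraries left out in turn the count ran between 1 and 5, where 0.826% to 4.24% of all genes were called. Against siELOVL2, 0 of 31 members were called by limma in any setting that was run, where 0.059% of all genes were called, and at an unadjusted p under 0.05 there was 1 member, DDB2, which was lower, against 3.60% of all genes. The interaction, which asks whether the double knockdown differs from the sum of the single ones, called 0 of 31 members and 0 of 18648 genes. At an unadjusted p under 0.05 it gave 0 members and 522 genes (2.80%), and without the intensity trend limma called 9 genes. The smallest unadjusted p among the members was 0.0651, for TP53INP1.

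The fitted change was above 0 for 14 of 31 members in the double knockdown against siELOVL2 (49.9% of all genes), for 21 against siELOVL5 (52.7%) and for 10 in the interaction (51.4%). Every double knockdown library lay above every siELOVL2 library for 2 members, against 4.53% of all genes, and below for 1, against 4.33%. Against siELOVL5 it lay above for 7 members, against 11.4% of all genes, and below for 1, against 7.43%.

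When the 6 libraries that received siELOVL2 were set against the 6 that did not, every library with it lay above every library without it for 4 members, RPS27L, ABHD4, NINJ1 and ZMAT3, against 3.51% of all genes. With siELOVL5 replicate 3 left out the count was 7, with MDM2, CDKN1A and BTG2 added, against 4.82% of all genes. 0 members lay wholly below, against 2.45% of all genes.

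siELOVL5 replicate 3 had the highest value of all 12 libraries for 11 of 31 members (35.5%), where it had the highest value for 15.8% of all tested genes. The 11 were MDM2, MDM4, PPM1D, BTG2, GADD45A, TNFRSF10A, TNFRSF10B, EDA2R, AEN, DRAM1 and XPC. Set against the mean of siELOVL5 replicates 1 and 2, GADD45A was 3.60 times as high, TNFRSF10B 1.92 times, TNFRSF10A 1.91 times and AEN 1.54 times. These 4 of 31 members exceeded 1.5 times, as did 15.8% of all genes, so the share is near the background. At the other end 0 members were at least 1.5 times lower, against 18.6% of all genes. TRIAP1 and TP53I3 were the lowest, at 0.729 and 0.757 times. siELOVL2 replicate 1 came next, with the highest value for 9 of 31 members, against 7.26% of all genes.

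**Figure D4:**
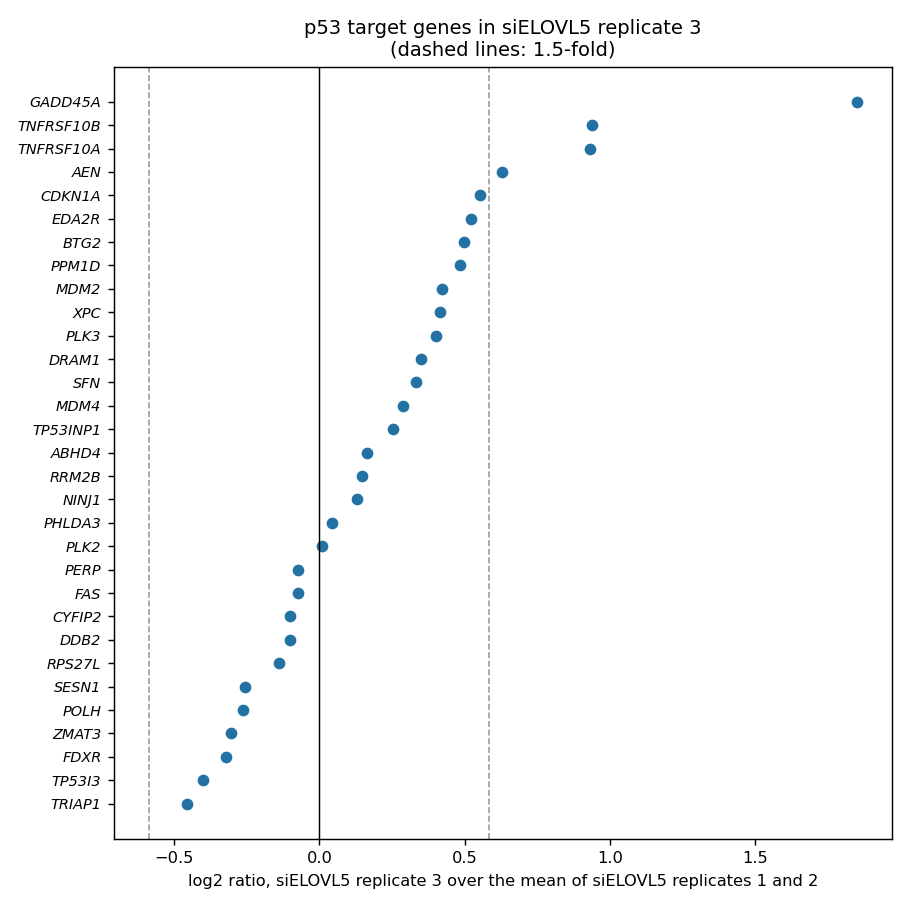
Log2 ratio of siELOVL5 replicate 3 to the mean of replicates 1 and 2 for each of the 31 members, sorted, with dashed lines at 1.5-fold. GADD45A, TNFRSF10B, TNFRSF10A and AEN lie beyond the upper line, and no member lies beyond the lower.

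GADD45A and TNFRSF10B are also known targets of the stress factors ATF4 and CHOP, and genes of that response were highest in the same library. ATF3, a stress-induced transcription factor, stood at 4390.0 there, against at most 222 in the other 11 libraries. DDIT3, which encodes CHOP, stood at 299, against at most 50.3. PPP1R15A, which restarts translation after stress, stood at 4136, against at most 778. Of 12 such genes 10 were highest in this library, as were 15.8% of all tested genes. The list was chosen after the values were seen, so this count is a description and not a test. Their summed normalized count was 6800 to 7647 in siELOVL2, 7686 to 22988 in siELOVL5, 6526 to 7779 in the double knockdown and 7138 to 7549 in control. In the unweighted fit of all 12 libraries without a replicate block, PHGDH was the only gene of the list called. PHGDH carries out the first step of serine synthesis. With library weights, with a replicate block and without double knockdown replicate 3, 1 other gene was called higher in the double knockdown than in control. Of all genes 12.0%, 10.01% and 3.42% were called in these settings. PHGDH had 393, 463 and 472 in siELOVL2, 634, 603 and 728 in siELOVL5, 403, 507 and 396 in the double knockdown and 599, 624 and 555 in control. The siELOVL2 and double knockdown libraries lay below all others. The log2 fold change was -0.45 ± 0.11 (SE) in the double knockdown against control (adjusted p = 0.0426) and -0.59 ± 0.11 (SE) against siELOVL5 (adjusted p = 0.0169). The call against control was lost without 9 of the 12 libraries taken singly, with an adjusted p of 0.0511 to 0.158, and held without siELOVL2 replicate 1, siELOVL5 replicate 3 and double knockdown replicate 2. It was also lost without a filter on low values (0.0550). That against siELOVL5 was lost without double knockdown replicate 1 or 3 (adjusted p = 0.0737 and 0.0572), and both were lost without the intensity trend (0.108 and 0.0641) and in fits of the groups compared alone (0.0765 and 0.174). Without siELOVL5 replicate 3 PHGDH was also called lower in siELOVL2 than in control. The part of the list in the member values was not tested.

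**Figure D5:**
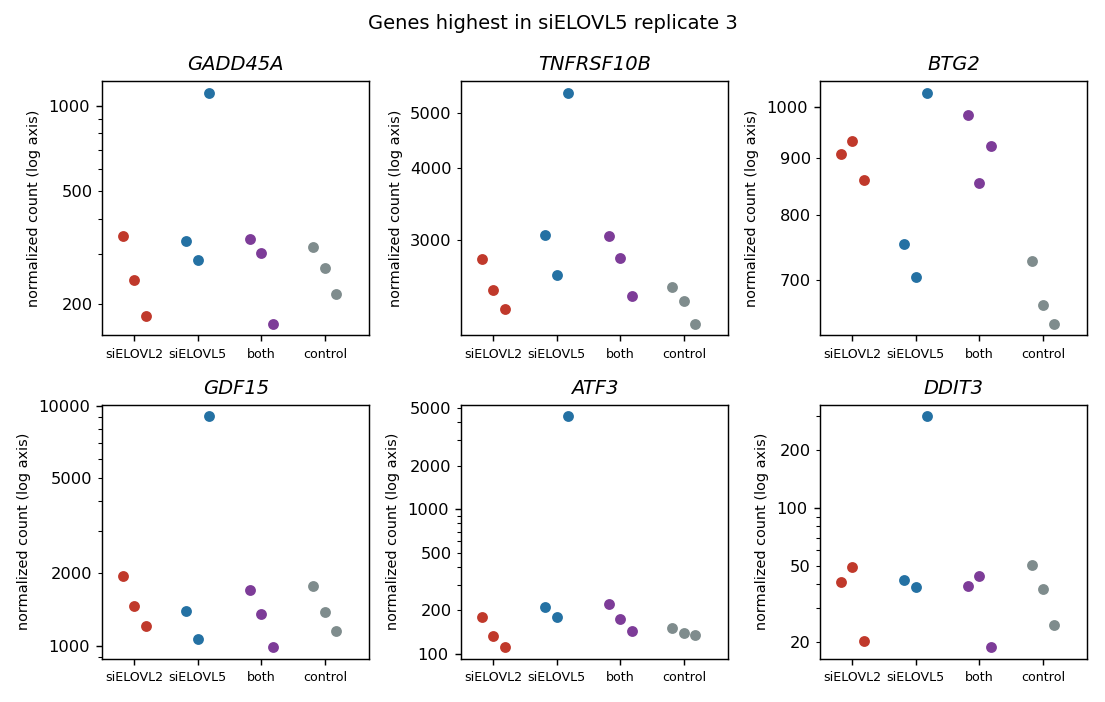
Normalized counts of GADD45A, TNFRSF10B, BTG2, GDF15, ATF3 and DDIT3 in each library on log axes, with replicates 1 to 3 from left to right. In all 6 panels siELOVL5 replicate 3 is the highest point.

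The spread of that library also enters the tests of the other groups, which share an estimate of the variance. Without it, 5 of 31 members were higher in siELOVL2 than in control, against 4.45% of all genes called in either direction. They were NINJ1, ABHD4, BTG2, RPS27L and ZMAT3. In the double knockdown 5 members were then higher and 1 lower, against 9.52% of all genes. NINJ1, ABHD4, BTG2, MDM2 and ZMAT3 rose there, and TNFRSF10A fell. In siELOVL5 0 of 31 members were called without it, against 0.209% of all genes.

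A further list held 44 p53 targets, 43 of them tested. In siELOVL2 0 were higher and 1 lower than in control, where 1.36% of all genes were called. In siELOVL5 0 of 43 were called (0.139% of all genes) and 5 had an unadjusted p under 0.05 (9.56%). In the double knockdown 2 were higher and 2 lower, where 4.42% of all genes were called. The median log2 fold change was 0.16 in siELOVL2, -0.05 in siELOVL5 and 0.14 in the double knockdown. The fitted change was above 0 for 34, 20 and 28 of 43 in the same order, against 52.9%, 48.7% and 52.4% of all genes. Without siELOVL5 replicate 3 the siELOVL5 median was -0.04, with 14 of 43 above 0, and 4, 0 and 9 of 43 were called in siELOVL2, siELOVL5 and the double knockdown, where 4.45%, 0.209% and 9.52% of all genes were. CCNG1, which encodes cyclin G1, had the largest change of the list. It had 192, 253 and 241 in siELOVL2, 644, 686 and 645 in siELOVL5, 215, 238 and 229 in the double knockdown and 712, 708 and 638 in control. CCNG1 fell by 1.59 ± 0.10 (SE) on the log2 scale in siELOVL2 (adjusted p = 9.83e-06) and by the same amount in the double knockdown (adjusted p = 8.97e-06), a call that held in every setting that was run.

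In the double knockdown GM2A, the GM2 ganglioside activator, rose by 0.40 ± 0.10 (SE) (adjusted p = 0.0378), and PLXNB2, a semaphorin receptor, by 0.36 ± 0.08 (SE) (adjusted p = 0.0194). GM2A had 569, 532 and 579 in the double knockdown, against 416, 427 and 426 in control. PLXNB2 had 7784, 7432 and 7084 in the double knockdown, against 5809, 5897 and 5665 in control. IKBIP had 634, 600.5 and 635 in the double knockdown, against 875, 867 and 778 in control, with a log2 fold change of -0.43 ± 0.09 (SE) (adjusted p = 0.0210). The GM2A call was lost without any control, siELOVL2 or double knockdown library, that of PLXNB2 without any control library or double knockdown replicate 1 or 2, and that of IKBIP without control or double knockdown replicate 1 or 2. The adjusted p reached 0.130 for GM2A without control replicate 1, 0.0807 for PLXNB2 without double knockdown replicate 1 and 0.0976 for IKBIP without control replicate 2. All 3 were lost without the intensity trend (0.0959, 0.0678 and 0.0702). Against siELOVL5 the double knockdown had 3 of 43 higher, GM2A, PLXNB2 and TNFRSF10D, and 1 lower, CCNG1. Of all genes 2.77% were called there, 1.36% higher and 1.41% lower. The TNFRSF10D call (adjusted p = 0.0455) was lost with most single libraries left out, with an adjusted p of up to 0.150 without double knockdown replicate 2. That of GM2A was lost without double knockdown replicate 1 (0.0510), and that of PLXNB2 without siELOVL5 replicate 1 (0.0529), double knockdown replicate 1 (0.0665) or 2 (0.0647), or the intensity trend (0.0635). In a fit of the double knockdown and siELOVL5 alone the adjusted p was 0.184 for GM2A, 0.202 for PLXNB2 and 0.186 for TNFRSF10D. Of the 43 targets, 12 were at their highest in siELOVL5 replicate 3, as were 15.8% of all tested genes. GDF15, a secreted stress cytokine, stood at 9053 there, against at most 1943 in the other 11, and SESN2, a sestrin, at 1928, against at most 608.

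Cell cycle genes that p53 lowers indirectly, through p21 and the DREAM repressor complex, were listed as 15 genes, among them CDK1, CCNB1, PLK1 and AURKA. None was called in any comparison by limma in the unweighted fit of all 12 libraries without a replicate block. Against control, 1 in siELOVL2, 2 in siELOVL5 and 8 in the double knockdown had an unadjusted p under 0.05, as did 13.7%, 9.56% and 18.8% of all genes. The fitted change was below 0 for 14 of 15 in siELOVL2, 14 in siELOVL5 and 13 in the double knockdown, with medians of -0.42, -0.43 and -0.56, where the median of all genes lay within 0.02 of 0. The summed value of the 15 was 12053 to 15255 in siELOVL2, 8059 to 18037 in siELOVL5, 10064 to 14805 in the double knockdown and 16251 to 19886 in control. The siELOVL2 and double knockdown sums lay wholly below control. In siELOVL5 the lowest sum was that of replicate 3, and replicates 1 and 2, at 18037 and 16309, lay within the control range. Without replicate 3 the siELOVL5 median was -0.08, with 10 of 15 below 0. The other tests also moved without that library. CDC25C and MCM5 were then called lower in siELOVL2, MCM5 in siELOVL5, and CDK1, CDC25C, BIRC5, AURKB, TOP2A and MCM5 in the double knockdown, where 4.45%, 0.209% and 9.52% of all genes were called. With library weights 2, 1 and 5 were called, against 8.41%, 0.778% and 12.0% of all genes, and in a fit of the double knockdown and control alone BIRC5 and MCM5 were called, against 4.26%.

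Members with and without a promoter decamer had similar fitted changes. In siELOVL2 the median log2 fold change was 0.21 for the 8 genes with a decamer and 0.23 for the 17 without. In siELOVL5 it was -0.01 and 0.08, and in the double knockdown 0.19 and 0.21, in the same order. Of the 4 members that lay wholly above in all libraries with siELOVL2, ABHD4 and RPS27L have a decamer in the window, and NINJ1 and ZMAT3 have none there. These letters say nothing about binding of p53 outside the window.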

How the data were processed

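Per the labels, the 12 A498 libraries were read on a NextSeq 500 with paired 36-base reads. The authors deposited a signal value per gene and library, labelled normalized. All 12 columns hold the same sorted values, each a multiple of 1/12, as quantile normalization of read counts gives. The aligner, counter and build were not given in the sources used here. Depth was estimated from steps between tied low values (tested on simulated data: 0.995 to 1.007 times the true depth).

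The test was limma 3.58.1 (R 4.3.3) with an intensity trend, run on log2(value + 1). The 4 groups were fitted together (8 residual degrees of freedom), and p-values were adjusted by Benjamini-Hochberg over the 18648 genes that reached 1 in 3 or more libraries, with a threshold of 0.05. The fit was also run on simulated data, in which each gene had the same spread in all libraries and the libraries were independent. That simulation does not cover a library that stands apart, such as siELOVL5 replicate 3, or a link between replicate numbers. Fold changes are on the log2(value + 1) scale and understate changes of low genes.

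Every member is named. Members called, and the 3 with the largest change in each knockdown against control and a mean of at least 10, have values per library. CDKN1A, MDM2, BTG2 and RPS27L were added after their values were seen. Called genes are named from the other lists, and a list of p53 regulators is not reported here. The members and lists were chosen with earlier results of these data known. Of 118 list genes 113 were found by name, 4 by an older name and 1 not at all. Promoters and symbols are from RefSeq, transcript lengths from GENCODE 29. Alternatives covered pseudocount, filter, trend, weights, scaling, samples, block and single libraries.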

Additional observations from a re-analysis of the deposited data

How the results depend on the processing

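The median log2 fold change of the 31 members kept its sign in every setting for siELOVL2 against control (0.10 to 0.21), the double knockdown against control (0.13 to 0.24) and the double knockdown against siELOVL5 (0.06 to 0.15). It changed sign for siELOVL5 against control (-0.0087 to 0.11), the double knockdown against siELOVL2 (-0.075 to 0.027) and the interaction (-0.13 to 0.017). With siELOVL2 against control, 2 members were called, where 1.36% of all genes were. The count was 0 without the intensity trend (0.542% of all genes called), 8 with library weights (8.41%) and 0 to 5 with single libraries left out (0.338% to 4.45%). With the double knockdown against control the main count was 2 (4.42%). It was 5 with library weights (12.0%) and 2 to 6 with single libraries left out (1.74% to 9.52%). With the double knockdown against siELOVL5 the main count was 4 (2.77%). It was 2 without a filter on low values (1.88%), 1 without the trend (1.07%) and 2 with median-of-ratios scaling (2.75%). It was 0 when fitted on the groups compared alone (0.113%), and 1 to 5 with single libraries left out (0.826% to 4.24%). The cause was not tested.

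The labels do not say what a replicate number shares. Deviations from the group means correlated at -0.0012 to 0.212 (median 0.10) between 18 same-numbered pairs and at -0.215 to 0.0644 between 36 other pairs. Of the same-numbered pairs 9 of 18 were over 0.1, whereas pairing was taken to need all of them. The pairs lay at 0.114 to 0.166 for number 1, -0.0012 to 0.0317 for number 2 and 0.0768 to 0.212 for number 3. Deviations of the 3 libraries of a group sum to 0 and so are not independent, and this rule cannot exclude pairing. Of 12 libraries 10 correlated best with one of their own number, which is a hint from the data and not the design. With the number as a replicate block 5 members were called in siELOVL2, 5 in the double knockdown against control and 6 in the double knockdown against siELOVL5, and the calls over all genes were 861, 1866 and 1368 (4.62%, 10.01% and 7.34%), against 254, 825 and 516 without the block. With siELOVL5 against control they were 99 and 26. Of the 15 genes repressed through DREAM, 9 were called in the double knockdown with the block. With the block and siELOVL5 replicate 3 left out, a setting chosen after seeing the data, the members called were 13, 16 and 11, against 13.6%, 19.8% and 11.3% of all genes, and the median interaction was 0.017, against -0.083.

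Among single members, fits that changed sign had small changes and none was called. As main value, then range with single libraries left out, in log2 units, these were, against control in siELOVL2, DRAM1 -0.017 (-0.21 to 0.16), FAS 0.067 (-0.012 to 0.15), GADD45A -0.087 (-0.33 to 0.14), MDM4 -0.040 (-0.073 to 0.0095), SFN 0.056 (-0.061 to 0.18) and TP53I3 0.017 (-0.25 to 0.26). In siELOVL5 they were CDKN1A 0.14 (-0.043 to 0.25), MDM2 0.090 (-0.050 to 0.18), PLK2 0.0044 (-0.055 to 0.069), PPM1D -0.063 (-0.22 to 0.022), RRM2B -0.0068 (-0.076 to 0.036), SESN1 -0.018 (-0.11 to 0.066), TNFRSF10A 0.051 (-0.26 to 0.32), TP53I3 0.092 (-0.083 to 0.22), TRIAP1 0.085 (-0.11 to 0.22) and XPC 0.047 (-0.095 to 0.20). In the double knockdown they were DRAM1 -0.079 (-0.27 to 0.18), GADD45A -0.025 (-0.22 to 0.28), PHLDA3 0.029 (-0.068 to 0.10), PPM1D 0.018 (-0.025 to 0.076), RRM2B -0.0054 (-0.10 to 0.083), SFN 0.011 (-0.098 to 0.13) and XPC 0.0084 (-0.12 to 0.092). With library weights the values were -0.0022 for CDKN1A in siELOVL5, 0.056 for DRAM1 in the double knockdown, 0.022 for DRAM1 in siELOVL2, 0.11 for GADD45A in the double knockdown, -0.016 for MDM2 in siELOVL5, -0.024 for PLK2 in siELOVL5, 0.072 for SESN1 in siELOVL5, -0.025 for SFN in the double knockdown, -0.24 for TNFRSF10A in siELOVL5, -0.047 for TP53I3 in siELOVL2, -0.039 for XPC in the double knockdown and -0.012 for XPC in siELOVL5, and with median-of-ratios scaling -0.00056 for PPM1D in the double knockdown, 0.0059 for RRM2B in siELOVL5, -0.0077 for SFN in the double knockdown and -0.010 for XPC in the double knockdown.

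Estimated depths of 6.70 to 10.7 M reads limit the lowest members, TRIAP1 and TP53INP1, most. The labels call replicates biological without saying what was repeated. All 12 libraries share a batch, per the labels.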
